A study of Homo sapiens with 6 samples.

Results

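Interferon-stimulated genes are the transcripts that a cell raises when it senses foreign nucleic acid or receives an interferon, and they were followed here in MCF-10A cells with and without added MBD2. The genes were taken from a list of 42 names of classical interferon-stimulated genes and RNA sensors, in which DDX58 and RIGI name the same gene, so that 41 genes were sought. Of these, 40 were measured through a probe set with exactly 1 gene symbol, out of 19775 genes measured in all, and STAT2 was not analysed here. The genes were chosen by name, with earlier results of these data known. Where a gene had several probe sets, the brightest over the 6 arrays stood for it.

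MCF-10A cells are an immortal but not tumorigenic line from human breast epithelium, and MBD2 is a protein that binds methylated DNA. Total RNA of control cells (3 arrays) and of cells with added MBD2 (3 arrays) was hybridized to Affymetrix Human Genome U133 Plus 2.0 arrays. The treatment label of the MBD2 arrays is MBD2 transfection, and the methods name infection with an MBD2 lentivirus. The labels call the controls non-infected and the arrays technical replicates, whereas the methods name an empty control virus and biological replicates. With uninfected controls, the virus and MBD2 cannot be told apart, and every p-value rests on the spread among these 6 arrays alone, which may be technical. Values are log2 levels normalized by RMA, a method that corrects background, gives the arrays a common distribution and summarizes the probes of a probe set, so a difference of 1 is a 2-fold change.

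Cells recognize foreign RNA in the cytoplasm with the helicases RIG-I and MDA5, which signal through the adaptor MAVS to interferon regulatory factors and so to the interferon genes. Secreted interferon then acts through its receptors and the kinases JAK1 and TYK2, and a complex of STAT proteins with IRF9 binds the interferon-stimulated response element in the promoters of the target genes. Many of the products act on viral RNA or on virus assembly, and several of them, RIG-I and MDA5 included, are sensors of the same pathway.

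The response element was looked for by its core letters (GAAA, any 2 bases, GAAA) on either strand in the RefSeq promoter windows of build GRCh38.p14, which run from 250 bases before a transcription start to 50 after it. Of the 32 measured genes that had a window, 23 held the letters (71.9%), against 4.38% of 27305 genes in that promoter table, and by window the shares were 64.3% of 42 and 3.57% of 35116. The gamma-activated site TTCNNNGAA, which reads the same on both strands and can overlap the first motif, lay in 10 of the 32 (31.2%), against 9.38% of genes. These are letter matches and not measured binding. The genes were chosen as interferon-stimulated, so this share bears on the choice and not on the values of these arrays. The stretches below belong to some of the genes on which the results turn, picked among those with a match. They carry the response element letters, in capitals, that 23 of the 32 genes hold. IFIT3 and IFIH1 are the called genes, SAMD9 is among the genes with the most negative differences, ISG15 holds 2 overlapping matches, and IFIT1, IFI44L, RSAD2 and BST2 differed by over 2-fold between the MBD2 arrays. Each is written along the strand of its gene, so that a match on the opposite strand reads TTTC, any 2 bases, TTTC. They lie at chr10:89332453-89332512 (IFIT3, plus strand), chr2:162318685-162318744 (IFIH1, minus strand), chr7:93118081-93118140 (SAMD9, minus strand), chr1:1013365-1013424 (ISG15, plus strand), chr10:89392495-89392554 (IFIT1, plus strand), chr1:78620350-78620409 (IFI44L, plus strand), chr2:6877607-6877666 (RSAD2, plus strand) and chr19:17405720-17405779 (BST2, minus strand).
IFIT3: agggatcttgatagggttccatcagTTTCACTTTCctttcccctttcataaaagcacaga
IFIH1: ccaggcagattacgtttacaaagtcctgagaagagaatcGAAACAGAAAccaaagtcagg
SAMD9: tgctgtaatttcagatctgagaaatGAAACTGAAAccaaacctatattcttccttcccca
ISG15: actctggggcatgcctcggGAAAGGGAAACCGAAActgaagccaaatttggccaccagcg
IFIT1: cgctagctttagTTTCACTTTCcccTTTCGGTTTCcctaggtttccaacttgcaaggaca
IFI44L: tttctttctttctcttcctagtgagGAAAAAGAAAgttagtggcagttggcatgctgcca
RSAD2: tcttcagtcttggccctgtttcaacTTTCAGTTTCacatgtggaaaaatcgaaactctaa
BST2: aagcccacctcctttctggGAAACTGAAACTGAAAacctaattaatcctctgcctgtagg

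**Figure D1:**
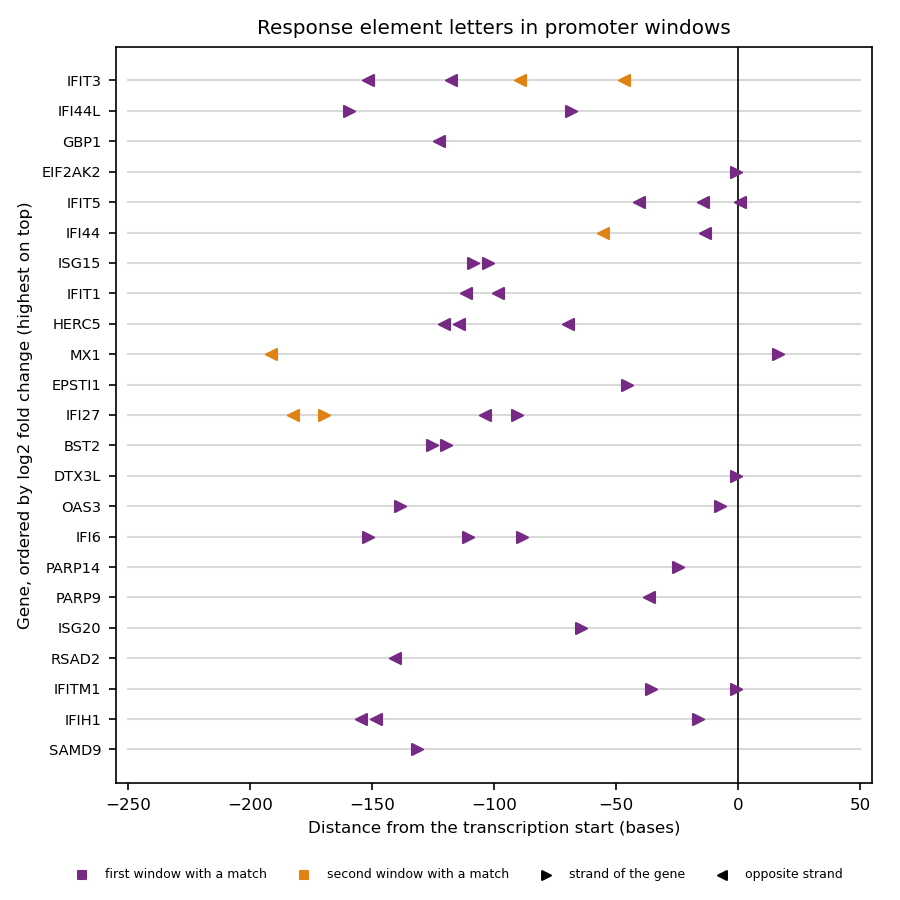
Positions of the response element letters in the promoter windows of the 23 genes that hold them, as distance in bases from the transcription start (x axis), with the genes ordered by log2 fold change (y axis). Arrowheads give the strand of the match and the colours separate a gene's first and second window with a match; IFIT3, at the top, has matches in 2 windows and SAMD9, at the bottom, has 1.

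Genes with the letters and genes without them lay on both sides of 0. The median log2 fold change was -0.05 over the 23 genes with a match and -0.15 over the 9 without, and 11 of the 23 and 3 of the 9 lay above 0. No match was found in the windows of CMPK2, HERC6, IFI35, IRF1, IRF9, OAS1, RIGI, SAMD9L and XAF1. DHX58, IFIT2, IRF7, MX2, OAS2, OASL, TRIM22 and USP18 had no window in the table.

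The added gene itself was higher on every MBD2 array, at 11.72 to 12.50 against 8.92 to 9.68 on the control arrays, a difference of 2.92 (SE 0.28, limma adjusted p = 0.0119). The arrays did not differ evenly: control arrays 1 and 2 were more than 2-fold apart in only 5 genes and MBD2 arrays 2 and 3 in 95, whereas control array 3 was that far from control array 1 in 1572 genes and MBD2 array 1 from MBD2 array 2 in 2877. Bacterial hybridization controls averaged 10.7 to 11.1 on the control arrays and MBD2 array 1 and 9.72 and 9.79 on MBD2 arrays 2 and 3. The excess of 3′ over 5′ signal in GAPDH, a sign of RNA quality, was 1.83 to 2.52 on the control arrays and 1.49 to 1.84 on the MBD2 arrays. In ACTB this excess was larger, at 3.62 to 4.57 on the control and 3.44 to 3.93 on the MBD2 arrays. Basal epithelial markers (7 of 10 measured) averaged 11.8 to 12.8 on the 6 arrays. Leukocyte markers (10 of 12) averaged 5.42 to 5.60 on the control and 5.17 to 5.19 on the MBD2 arrays, with 1 near background throughout, PTPRC at 3.50 to 4.03, and CD14 called lower (difference -3.07). Values under 4.17 were taken as near background. Fibroblast markers (9 of 9) averaged 6.64 to 7.33 on the control arrays and 8.51, 6.64 and 6.93 on MBD2 arrays 1, 2 and 3. Because MBD2 array 1 and control array 3 stand apart, values are given array by array below.

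The interferon-stimulated genes differed in both directions and few passed the test. IFIT3 was higher in the MBD2 cells by 3.41-fold and IFIH1, which encodes MDA5, was lower by 2.52-fold, and the other 38 genes did not pass (limma, adjusted p under 0.05 and a change of at least 1.5-fold). This is 2.5% of the genes in each direction, against 1.25% of all genes called higher and 1.5% called lower, so that the shares are near the background. In a bulk sample, fewer cells with a transcript and less of it per cell cannot be told apart. Both calls depended on single arrays and on treating near-identical arrays as separate: the counts fell to 0 and 0 when control array 1, control array 2, MBD2 array 2 or MBD2 array 3 was left out, and with control arrays 1 and 2 averaged and MBD2 arrays 2 and 3 averaged, while without MBD2 array 1 they were 6 higher (15%, against 9.62% of all genes) and 6 lower (15%, against 5.68%). Over all genes, 2 to 35 were called higher and 17 to 58 lower without each of the first 4 arrays, and 0 with the averaged arrays, against 248 and 296. With each array left out the difference stayed between 1.56 and 1.92 in IFIT3 and between -1.48 and -1.12 in IFIH1. Without control array 3, IFIT3 was called and IFIH1 was not. The cause of this dependence was not tested.

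An unadjusted p and groups without overlap each took in larger shares of these genes, in both directions. With an unadjusted p under 0.05 and the same fold, 7 were higher (17.5%, against 6.28% of all genes), namely CMPK2, EIF2AK2, IFI35, IFIT3, IFIT5, IRF7 and USP18. By this criterion 6 were lower (15%, against 5.23%), namely HERC6, IFIH1, IFITM1, OAS1, SAMD9 and SAMD9L. The 3 MBD2 arrays all lay above the 3 control arrays in 8 genes (20%, against 10.4% of all genes), which were CMPK2, EIF2AK2, GBP1, IFI35, IFIT3, IFIT5, IRF7 and ISG15. They all lay below in a further 8 (20%, against 14.6%), which were HERC6, IFIH1, IFITM1, OAS1, PARP14, PARP9, SAMD9 and XAF1. The rule of the study's methods, with every MBD2 array above 1.5 times or under 0.5 times the control mean, was met upward by IFIT3 alone (2.5%, against 3.47%) and downward by IFIH1, OAS1 and SAMD9 (7.5%, against 1.81%).

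**Figure D2:**
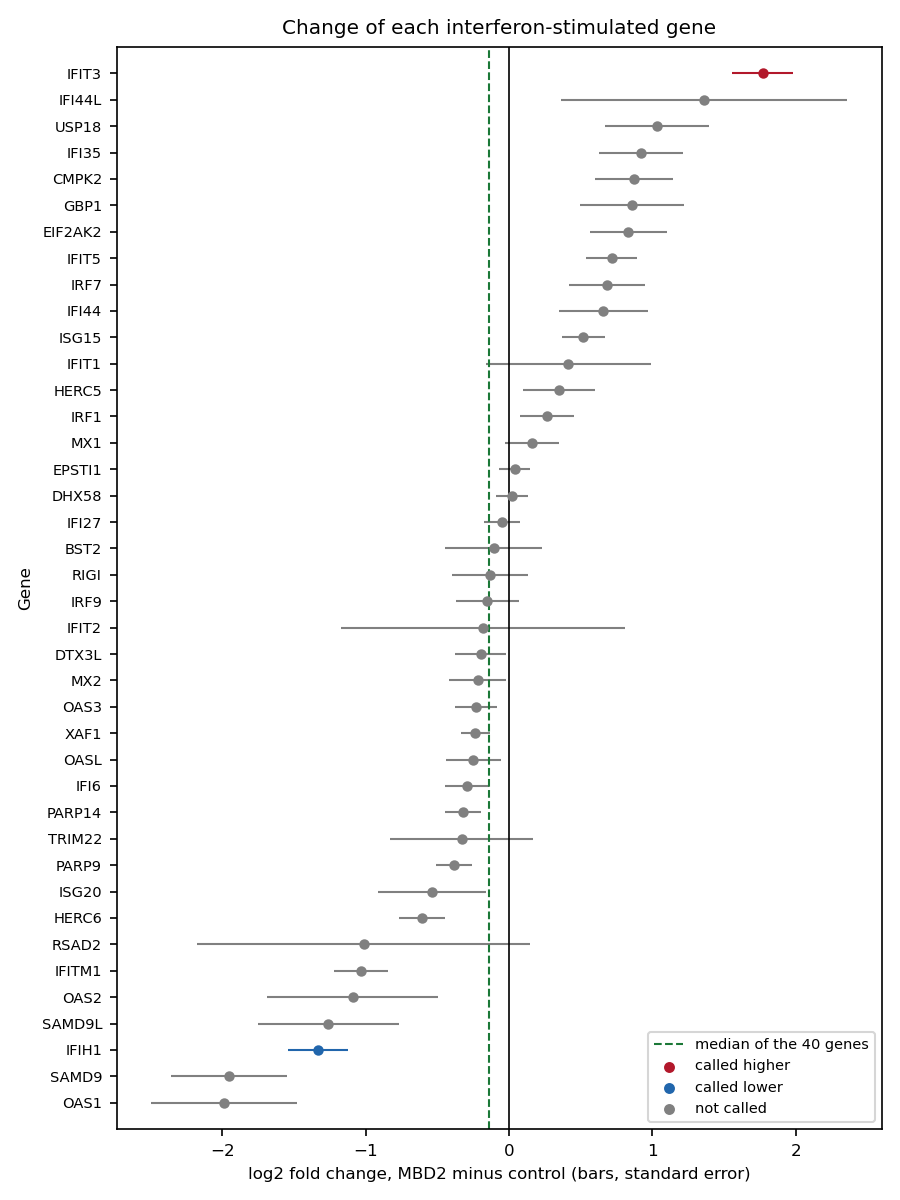
Log2 fold change, MBD2 minus control, of the 40 measured genes (x axis, log2 units), with bars for the standard error of the limma fit and a dashed line at their median of -0.14. IFIT3 at 1.77 and IFIH1 at -1.33 are the called genes, and IFI44L, IFIT2 and RSAD2 have the widest bars.

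As a group the genes were centred near 0 but spread widely. Their median log2 fold change was -0.14, against -0.02 over all genes, with 17 genes above 0 and 23 below (15 and 25 with the arrays centred on housekeeping genes). Their median absolute change was 0.47, against 0.20 over all genes, and 22 of the 40 differed by less than 1.5-fold, against 16128 of 19775. The spread within a group was also wider on the MBD2 side: the median SD over the 40 genes was 0.20 among control arrays and 0.38 among MBD2 arrays, against 0.17 and 0.19 over all genes. Of the 40 genes, 37 had a mean of at least 5, against 13728 of the 19775, and spreads were not compared at matched levels.

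The IFIT family binds viral RNA and blocks its translation, and its 4 measured genes did not move together (median 0.56). IFIT3, which stabilizes IFIT1 on RNA, read 6.63, 6.47 and 5.92 on control arrays 1, 2 and 3 and 8.26, 8.10 and 7.97 on MBD2 arrays 1, 2 and 3. The groups lay well apart, with means of 6.34 ± 0.37 (SD, n = 3) and 8.11 ± 0.15 (SD, n = 3) and a difference of 1.77 (SE 0.21, adjusted p = 0.0182). Its second probe set read 6.73, 6.85 and 6.29 on the control and 7.24, 6.61 and 6.50 on the MBD2 arrays, a difference of 0.16 (SE 0.25) with overlapping groups. With the mean of both probe sets the difference was 0.97 (adjusted p = 0.0929, within 7.94e-05 to 0.368 over all limma fits). The increase of IFIT3 thus rests on 1 probe set.

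IFIT2, an IFIT protein linked to cell death, went both ways. It read 8.03, 8.15 and 7.81 on the control arrays, 10.21 on MBD2 array 1, and 6.76 and 6.48 on MBD2 arrays 2 and 3. MBD2 array 1 thus lay above every control and MBD2 arrays 2 and 3 below every control, and the mean difference was -0.18 (SE 0.99, adjusted p = 0.944). The second IFIT2 probe set read 5.95, 5.85 and 5.51 on the control and 6.47, 5.64 and 5.85 on the MBD2 arrays. Its difference was 0.22 (SE 0.25), and MBD2 arrays 2 and 3 lay within its control range. IFIT1, which recognizes RNA with an unmethylated cap, read 6.09, 7.11 and 5.42 on the control and 7.60, 6.09 and 6.17 on the MBD2 arrays (difference 0.41, SE 0.58, adjusted p = 0.756), with the highest value again on MBD2 array 1. IFIT5, which binds triphosphate-ended RNA, showed the other order, with 9.003, 8.86 and 8.76 on the control and 9.24, 9.83 and 9.71 on the MBD2 arrays. Its groups did not overlap, and its difference of 0.72 did not pass (SE 0.18, adjusted p = 0.113). Its second probe set read 7.50, 7.30 and 7.42 on the control and 7.97, 7.90 and 7.83 on the MBD2 arrays. The groups again did not overlap (difference 0.49, SE 0.10), but MBD2 array 1 was the highest there.

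Among the RNA sensors only the transcript of MDA5 passed the test. IFIH1 read 9.60, 9.36 and 9.60 on the control arrays and 8.49, 8.31 and 7.76 on the MBD2 arrays, so that every MBD2 array lay below every control. Control arrays averaged 9.52 ± 0.14 (SD, n = 3) and MBD2 arrays 8.19 ± 0.38 (SD, n = 3), a difference of -1.33 (SE 0.21, adjusted p = 0.0378). The other 2 probe sets of IFIH1 were near background on all 6 arrays and differed by 0.08 and 0.16. RIGI, the gene of RIG-I, read 7.20, 7.40 and 7.47 on the control and 7.79, 6.82 and 7.06 on the MBD2 arrays, with MBD2 array 1 above and the others below all controls (difference -0.13, SE 0.26, adjusted p = 0.837). Its other probe sets differed by 0.33 and -0.20. DHX58, the gene of the regulator LGP2, read much the same in both groups, at 5.54, 5.64 and 5.41 against 5.57, 5.46 and 5.63 (difference 0.02, SE 0.11, adjusted p = 0.940, and -0.08 with the arrays centred on housekeeping genes).

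EIF2AK2 encodes PKR, the kinase that halts translation on double-stranded RNA. It read 8.59, 8.58 and 8.80 on the control and 8.93, 9.96 and 9.58 on the MBD2 arrays. The groups did not overlap and MBD2 array 1 lay closest to the controls, with a difference of 0.83 (SE 0.27, adjusted p = 0.184). Its other 2 probe sets differed by -0.11 and -0.04.

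OAS1, OAS2 and OAS3 make the oligoadenylates that switch on RNase L, OASL is a relative without that activity, and all 4 had negative differences (median -0.67) with none past the test. OAS1 had the most negative difference of the 40 genes. It read 7.51, 7.78 and 9.13 on the control arrays and 6.83, 5.97 and 5.67 on the MBD2 arrays, so that the groups did not overlap while control array 3 stood well above the other controls. Control arrays averaged 8.14 ± 0.87 (SD, n = 3) and MBD2 arrays 6.15 ± 0.60 (SD, n = 3), a difference of -1.99 (SE 0.51, adjusted p = 0.115), and its second probe set differed by -2.11. OAS2 read 5.42, 5.33 and 7.34 on the control and 5.56, 4.62 and 4.63 on the MBD2 arrays, with control array 3 above all the others (difference -1.09, SE 0.60, adjusted p = 0.396, and -0.44 without control array 3). The other probe sets of OAS2 differed by -0.22 and -0.25. OAS3 and OASL differed by -0.23 and -0.25 (adjusted p = 0.469 and 0.556).

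**Figure D3:**
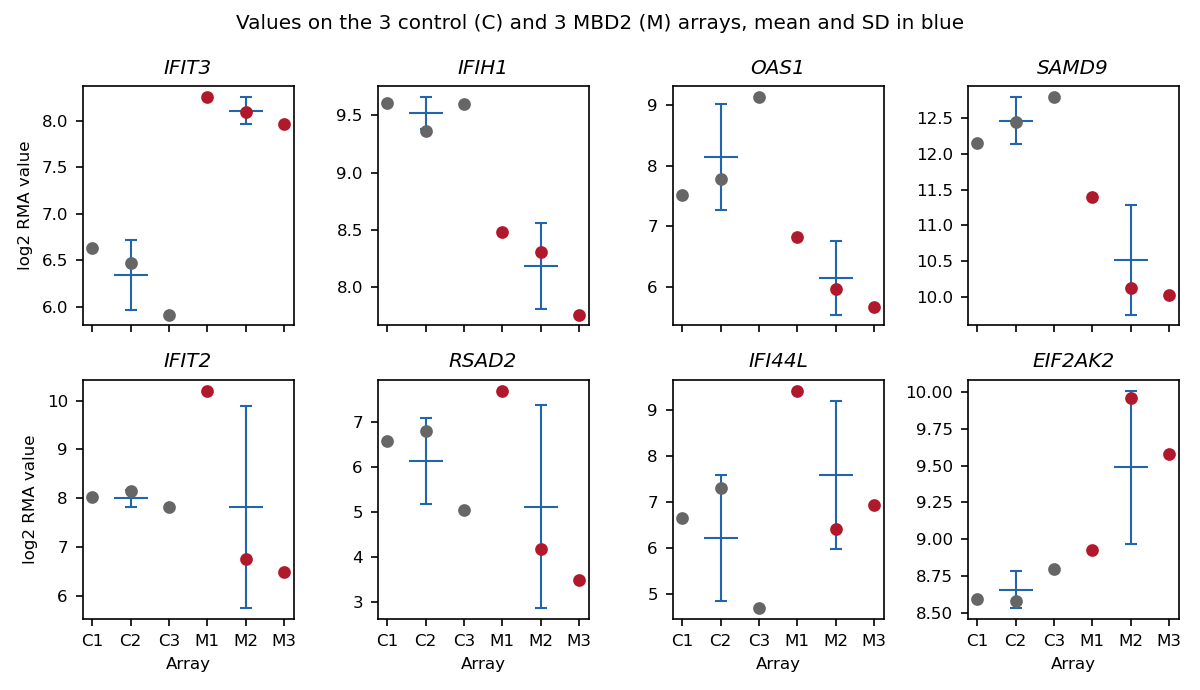
Log2 RMA values of 8 genes on control arrays 1 to 3 (C1 to C3, grey) and MBD2 arrays 1 to 3 (M1 to M3, red), with the mean and SD of each group in blue and a separate y axis for each gene that does not start at 0. IFIT3, IFIH1, OAS1, SAMD9 and EIF2AK2 separate the groups. IFIT2 and RSAD2 have MBD2 array 1 above all controls and MBD2 arrays 2 and 3 below them.

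The transcription factors of the pathway gave a median of 0.27, and none of the 3 passed the test. IRF7, which drives the alpha interferon genes, read 5.25, 5.22 and 5.12 on the control and 5.28, 6.16 and 6.21 on the MBD2 arrays (difference 0.69, SE 0.27, adjusted p = 0.252). MBD2 array 1 thus stood barely above the controls, and MBD2 arrays 2 and 3 lay clearly higher. IRF1, a factor of the interferon gamma response, read 7.13, 6.91 and 7.30 against 7.07, 7.65 and 7.43 (difference 0.27, adjusted p = 0.510), and its second probe set differed by -0.18. IRF9, the DNA-binding partner of the STAT proteins, read 7.83, 7.59 and 7.99 against 8.09, 7.48 and 7.39 (difference -0.15, adjusted p = 0.773). Both had overlapping groups.

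ISG15 is a ubiquitin-like protein that is joined to target proteins, HERC5 is its main ligase and USP18 removes it. ISG15 read 6.81, 6.89 and 7.10 on the control and 7.67, 7.27 and 7.42 on the MBD2 arrays, without overlap (difference 0.52, SE 0.15, adjusted p = 0.147). USP18, which also restrains signalling from the type I receptor, read 5.58, 6.004 and 5.24 against 5.92, 6.90 and 7.11 (difference 1.03, SE 0.36, adjusted p = 0.211). Its MBD2 arrays 2 and 3 lay above all controls and MBD2 array 1 lay among them. HERC5 differed by 0.35 and its paralog HERC6 by -0.61 (adjusted p = 0.519 and 0.121). HERC6 read 7.49, 7.52 and 7.83 on the control and 6.77, 7.13 and 7.11 on the MBD2 arrays, without overlap. The ADP-ribosyltransferase genes PARP9 and PARP14 also had no overlap, at small differences of -0.38 and -0.32. DTX3L, the ligase partner of PARP9, differed by -0.20, and the antiviral TRIM22 by -0.33.

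Among the genes that restrict viruses, the SAMD9 pair had the most negative differences. SAMD9, a translation inhibitor, read 12.15, 12.45 and 12.80 on the control and 11.40, 10.13 and 10.02 on the MBD2 arrays. The groups did not overlap, with means of 12.47 ± 0.33 (SD, n = 3) and 10.52 ± 0.77 (SD, n = 3) and a difference of -1.95 (SE 0.40, adjusted p = 0.0728). Its second probe set differed by -1.34. SAMD9L, its paralog and neighbour, read 8.03, 8.07 and 8.72 against 8.10, 6.40 and 6.55 (difference -1.26, SE 0.49, adjusted p = 0.253), so that MBD2 array 1 lay among the controls and the others below. The other probe sets of SAMD9L differed by only -0.14 and -0.58. IFITM1, which blocks virus entry, read 8.27, 8.64 and 8.38 against 7.71, 7.36 and 7.12, without overlap (difference -1.03, SE 0.19, adjusted p = 0.0526). It was called when only genes with a mean of at least 5 were tested (adjusted p = 0.0490, within 0.000591 to 0.497 over all limma fits).

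RSAD2 encodes viperin, which makes a chain-terminating nucleotide, and CMPK2 is the nucleotide kinase encoded beside it. RSAD2 read 6.57, 6.80 and 5.05 on the control arrays, 7.69 on MBD2 array 1, and 4.19 and 3.49 on MBD2 arrays 2 and 3, of which the last is near background. MBD2 array 1 lay above and MBD2 arrays 2 and 3 below every control (difference -1.01, SE 1.16, adjusted p = 0.695). CMPK2 read 5.65, 6.18 and 5.70 against 7.23, 6.54 and 6.37, with every MBD2 array above the controls (difference 0.87, SE 0.27, adjusted p = 0.172). GBP1, a GTPase that attacks the membranes around pathogens, read 8.25, 8.86 and 8.01 against 9.92, 8.90 and 8.86. Its MBD2 arrays 2 and 3 stood barely above control array 2, and its difference was 0.86 (SE 0.36, adjusted p = 0.288). Its other 3 probe sets differed by 0.31, 0.12 and 0.01.

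The remaining effectors stayed closer to their controls. MX1, a GTPase that traps viral nucleocapsids, read 5.46, 5.87 and 5.26 against 5.87, 5.60 and 5.60 (difference 0.16, SE 0.19, adjusted p = 0.698), and MX2 differed by -0.22. ISG20, an exonuclease, differed by -0.54 and BST2, which tethers budding virus, by -0.10, with overlapping groups.

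Among the further interferon-induced genes, IFI44L had the highest mean difference after IFIT3 and also one of the widest errors. It read 6.66, 7.30 and 4.70 on the control and 9.41, 6.41 and 6.92 on the MBD2 arrays (difference 1.36, SE 1.00, adjusted p = 0.526). MBD2 arrays 2 and 3 lay within the range of the controls. Its paralog IFI44 read 6.58, 7.21 and 6.24 against 7.77, 7.07 and 7.17 (difference 0.66, SE 0.31, adjusted p = 0.326). IFI35 read 6.48, 6.38 and 6.34 against 6.68, 7.84 and 7.44, without overlap (difference 0.92, SE 0.29, adjusted p = 0.182). EPSTI1, IFI27, IFI6 and XAF1 differed by -0.29 to 0.04, and XAF1 was near background on 4 arrays.

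The MBD2 arrays therefore held 2 patterns, described here without a test since single arrays have no replicate. Against the control mean, MBD2 array 1 was at least 2-fold higher in 8 genes (20%, against 4.12% of all genes), namely CMPK2, GBP1, IFI44, IFI44L, IFIT1, IFIT2, IFIT3 and RSAD2, and at least 2-fold lower in IFIH1, OAS1 and SAMD9 (7.5%, against 4.14%). MBD2 arrays 2 and 3 were both at least 2-fold higher in IFI35, IFIT3 and USP18 (7.5%, against 5.77%). They were both at least 2-fold lower in 8 genes (20%, against 4.17%), namely IFIH1, IFIT2, IFITM1, OAS1, OAS2, RSAD2, SAMD9 and SAMD9L. Set directly against the mean of MBD2 arrays 2 and 3, MBD2 array 1 was at least 2-fold higher in 10 genes (25%, against 5.1%), by 14.4-fold in RSAD2, 12-fold in IFIT2 and 6.71-fold in IFI44L. Background limits the fold of RSAD2, which is at least 11.4-fold with the near-background value of MBD2 array 3 set to the limit of 4.17. The rest of the 10 were BST2, GBP1, IFIT1, OAS1, SAMD9, SAMD9L and TRIM22, and USP18 alone was at least 2-fold lower (2.5%, against 8.46%). The second probe sets of IFIT2 and RSAD2 had their highest MBD2 value on array 1 too, with 6.47 against 5.64 and 5.85 for IFIT2 and 5.73 against 4.40 and 4.37 for RSAD2. So did the other probe sets of GBP1, OAS1 and SAMD9L. The second probe set of SAMD9 had its lowest MBD2 value there, with 6.01 against 6.55 and 6.28.

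Leaving out MBD2 array 1 brought 10 further genes past the test, IFIT5 among them, and calls rose over all genes too. Lower then were SAMD9 (-2.39), OAS1 (-2.32), SAMD9L (-1.80), IFIT2 (-1.38) and IFITM1 (-1.19), and higher were USP18 (1.39), IFI35 (1.24), EIF2AK2 (1.11) and IRF7 (0.99). The adjusted p of these 9 genes lay between 0.00429 and 0.0342 without that array. Over all limma fits the highest for each lay between 0.497 (IFITM1) and 0.992 (IFIT2). The second probe set of IFIT2 read 5.64 and 5.85 on MBD2 arrays 2 and 3, within its range of 5.51 to 5.95 on the control arrays.

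Control array 3 stood apart in other genes. It was at least 2-fold above the mean of control arrays 1 and 2 in ISG20, OAS1, OAS2 and TRIM22 (10%, against 3.36% of all genes) and at least 2-fold below it in IFI44L, IFIT1 and RSAD2 (7.5%, against 4.31%). Beside the values of MBD2 array 1, 4 of the 9 fibroblast markers (COL3A1, DCN, LUM and FAP) had their highest value of the 6 arrays there, with COL3A1 at 8.90 against 4.84 to 5.28 on the others, and 5 (COL1A1, COL1A2, PDGFRA, PDGFRB and THY1) did not. Beside those of MBD2 arrays 2 and 3 stand the low hybridization controls. The part of either in these results was not tested.

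**Figure D4:**
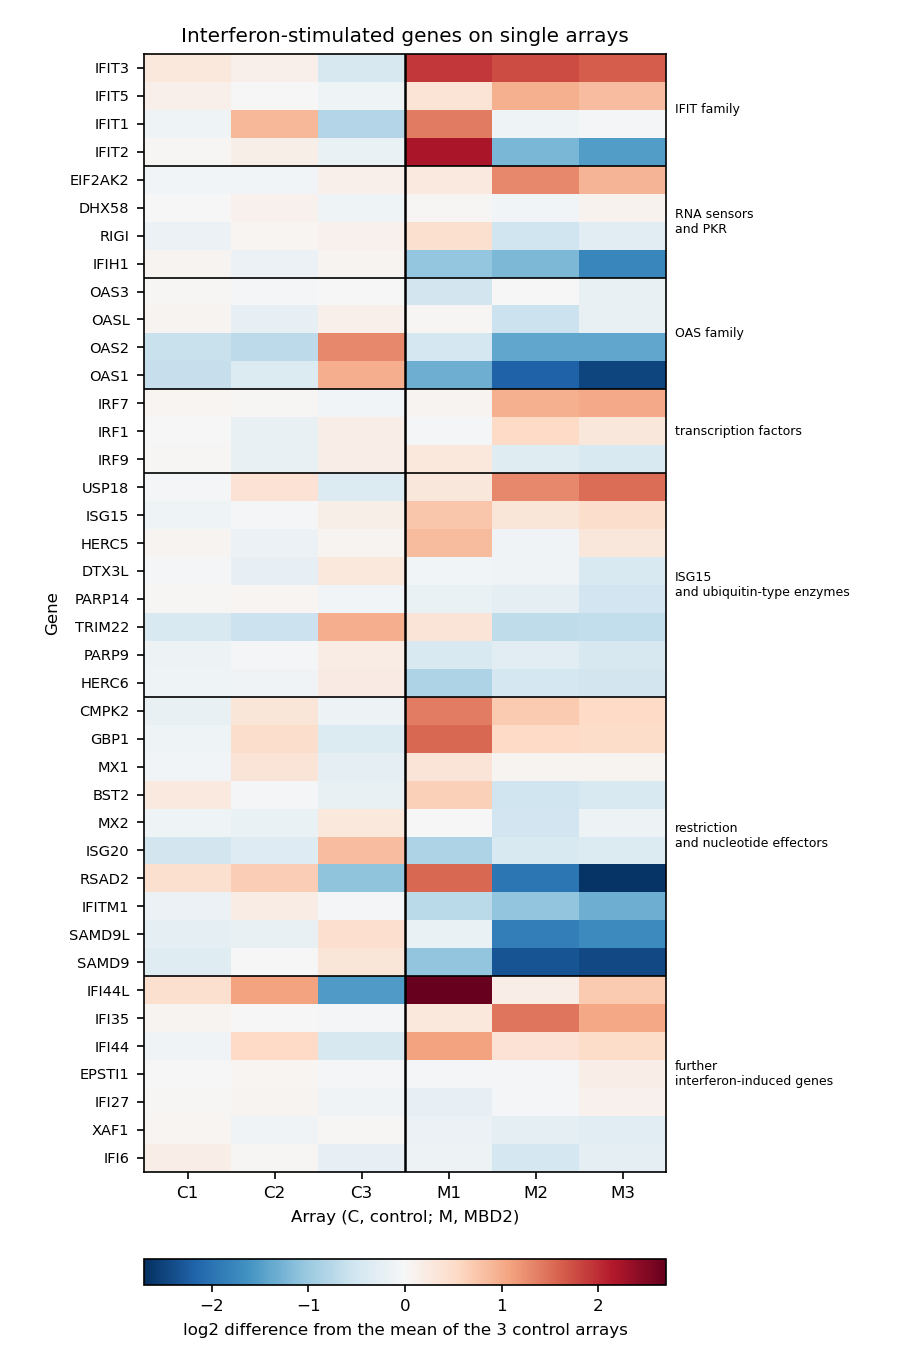
Log2 difference from the control mean (colour, red higher and blue lower) of the 40 genes (rows, grouped by role) on control arrays C1 to C3 and MBD2 arrays M1 to M3 (columns). IFIT3 is red and IFIH1 blue on all 3 MBD2 arrays, and IFIT2 and RSAD2 turn from red on M1 to blue on M2 and M3.

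Neighbouring genes differed between the groups in the same direction in some pairs and in opposite directions in others. The differences were positive in IFI44L and IFI44 (1.36 and 0.66) and in IFIT1 and IFIT5 (0.41 and 0.72). They were negative in PARP9 and DTX3L (-0.38 and -0.20), while MX2 and MX1 differed by -0.22 and 0.16. In the RefSeq gene table IFIT2 lies next to IFIT3 on chromosome 10. MBD2 array 1 exceeded the mean of the other MBD2 arrays by 3.59 in IFIT2 and by 0.22 in IFIT3. In their second probe sets this excess was 0.72 and 0.69, so the contrast rests on the probe sets used. On chromosome 2, RSAD2 and CMPK2 differed between the groups by -1.01 and 0.87. On chromosome 12, OAS1, OAS3 and OAS2 lie in a row and differed by -1.99, -0.23 and -1.09. SAMD9 and SAMD9L on chromosome 7 were the pair with 2 negative differences of over 1 unit, and HERC6 and HERC5 on chromosome 4 differed by -0.61 and 0.35.

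The rest of the pathway was read from 4 further lists. Of 48 further interferon-stimulated genes measured, none was called higher and 1 was called lower (2.08%, against 1.5% of all genes), TNFSF10, which encodes the death ligand TRAIL. It read 10.44, 10.42 and 11.38 on the control and 8.04, 7.18 and 6.93 on the MBD2 arrays, 10.3-fold lower (difference -3.36, SE 0.39, adjusted p = 0.0172). As with IFIT3, that call was not made when control array 1, control array 2, MBD2 array 2 or MBD2 array 3 was left out. By the unadjusted criterion 3 of the 48 were higher (CD274, PSMB9 and SP100) and 5 lower (GBP2, IFI16, IFITM2, IFITM3 and TNFSF10), that is 6.25% and 10.4%, against 6.28% and 5.23% of all genes.

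No interferon gene was called. Of 18 interferon genes measured, 0 were called by limma, 0 had an unadjusted p under 0.05 with a 1.5-fold change, and their differences ran from -0.19 to 0.17. Of the 18, 11 were near background on all 6 arrays and 5 on some of them, and background limits the differences that these can show. Of 15 receptors and signalling genes 0 were called, and by the unadjusted criterion 0 were higher and 2 lower (IL10RB and STAT3, 13.3% against 5.23% of all genes). The type I receptor chains IFNAR1 and IFNAR2 differed by 0.34 and -0.50 and their kinases JAK1 and TYK2 by 0.28 and 0.39 (adjusted p = 0.594, 0.439, 0.435 and 0.286). Of 18 adaptors and kinases of nucleic acid sensing 0 were called, and by the unadjusted criterion MAVS was higher (5.56%, against 6.28%) and TLR3 lower (5.56%, against 5.23%). MAVS, the adaptor of RIG-I and MDA5, differed by 0.59 (adjusted p = 0.190) and IRF3, the factor it activates, by 0.04 (adjusted p = 0.944). TLR3, the endosomal sensor of double-stranded RNA, read 9.92, 9.80 and 9.29 on the control and 9.37, 7.74 and 7.24 on the MBD2 arrays (difference -1.55, adjusted p = 0.221), with MBD2 array 1 among the controls and the others below them.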

How the data were processed

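For each of 54675 probe sets the deposited value is an RMA-normalized log2 level, on 6 Affymetrix U133 Plus 2.0 arrays, and per the labels the tools were RMA and affy, with no version given. Probe sets with exactly 1 symbol in the platform table (41091) were used, and those with several symbols (1801), with none, or of the 62 array controls were left out. RefSeq held 19735 of the 19777 Entrez identifiers. The probe set with the highest mean stood for a gene. Of the 40 genes, 22 had several probe sets, and in 13 of these all differed between the groups in the same direction. Groups were compared with limma 3.58.1 in R 4.3.3 (lmFit, eBayes, 1.96 prior degrees of freedom) over 19775 genes with Benjamini-Hochberg adjustment, and a call needed at least a 1.5-fold change with adjusted p under 0.05. Near background means within 0.5 of the highest control for a transcript that was not added. Promoter letters were searched with Python 3.11.15. The script was tested on simulated data.

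The genes and lists were chosen with earlier results of these data known. Values on all arrays are given for called genes, the 12 largest differences and 14 genes set by name, of which STAT2 was not analysed here, and for further genes chosen after their values were seen. Alternatives were the mean of all probe sets, genes with a mean of at least 5, only probe sets without a shared-sequence ending, housekeeping centring, quantile normalization, trend and robust eBayes, a replicate block, leaving out each array, an ordinary unpaired t-test, near-identical arrays averaged, arrays that stand apart left out, and other thresholds. Replicate numbers did not pair the arrays. Precision is limited by the number of arrays.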

Additional observations from a re-analysis of the deposited data

How the results depend on the processing

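The alternatives fitted by limma at the same thresholds gave 348 values of 22 genes. Of these, 290 kept their direction and call, 21 gained the call, 18 lost it and 19 reversed. Genes called higher numbered 1 of the 40, and 0 with the mean of all probe sets, the unpaired t-test or near-identical arrays averaged. They numbered 0 to 6 with each array left out, against 2 to 1903 of all 19775 genes. There were 6 without control array 3 and MBD2 array 1 (against 3299 of 19775) and 7 at an unadjusted p (17.5%, against 6.28%). Genes called lower numbered 1, and 0 with the mean of all probe sets, the t-test, averaged arrays or trend and robust fitting. They numbered 2 among genes with a mean of at least 5 (against 308 of 13728). With each array left out they numbered 0 to 6, against 17 to 1123 of all 19775 genes. There were 8 without control array 3 and MBD2 array 1 (against 2110 of 19775) and 6 at an unadjusted p (15%, against 5.23%). Without MBD2 array 1 the genes called were EIF2AK2, IFI35, IFIT3, IFIT5, IRF7 and USP18 higher and IFIH1, IFIT2, IFITM1, OAS1, SAMD9 and SAMD9L lower. Neither call was made without control array 1, control array 2, MBD2 array 2 or MBD2 array 3, and IFIH1 was not called without control array 3 either. With each array left out, the adjusted p of IFIT3 lay between 0.0103 and 0.0975 and that of IFIH1 between 0.00961 and 0.16. The cause was not tested.

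In the 99 genes of the other lists, 0 were called higher by limma and by the t-test, with 1 by the mean of all probe sets, 14 without control array 3 and MBD2 array 1, 4 at an unadjusted p and 0 to 5 with each array left out. There 1 was called lower, with 2 after housekeeping centring, 0 by the t-test, averaged arrays or MBD2 array 1 alone, 14 without control array 3 and MBD2 array 1, 8 at an unadjusted p and 0 to 10 with each array left out. Over all 19775 genes 248 were higher and 296 lower, with 3 and 10 by the t-test and 0 and 0 with averaged arrays. They numbered 3299 and 2110 without control array 3 and MBD2 array 1, and 1242 and 1034 at an unadjusted p. With each array left out they numbered 2 to 1903 and 17 to 1123. The median of the 40 genes, -0.14, became -0.25 after housekeeping centring, which moved the median of all genes from -0.02 to -0.13. It was 0.061 on MBD2 array 1 alone and -0.27 to 0.0065 with each array left out. In fits that leave an arm with 1 array, that array is assumed to vary like the others.

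Same-numbered arrays did not deviate together (correlations of 0.167, -0.273 and 0.215), so the numbers do not pair them. With the replicate number as a block, 0 of the 40 genes were called higher and 0 lower, 0 of the other lists were called lower, and 12 and 51 of all genes were called. Control array 2 and control array 3 each correlated better with an MBD2 array of another number.

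Reversals fell in 9 genes, none of them called where it reversed. IFIT2 was 0.017 with the mean of its probe sets, 0.46 with averaged arrays, 2.21 on MBD2 array 1 alone and -1.38 to 0.49 with each array left out. RIGI was 0.33 with probe sets without an ending for shared sequence, 0.43 on MBD2 array 1 alone and -0.42 to 0.069 with each array left out. DHX58 was -0.085 after housekeeping centring, -0.048 without control array 3 and MBD2 array 1, and -0.038 to 0.080 with each array left out. IFIT1 was -0.47 without those 2 arrays and -0.077 to 0.86 with each array left out. Without those 2 arrays IFI44L was -0.31 and MX1 -0.063. On MBD2 array 1 alone IRF1 was -0.047, IRF9 0.29 and RSAD2 1.55. The 3 arrays a group limit every call, since an exact permutation test of 3 against 3 cannot go below 0.1, and signal near background limits RSAD2, XAF1 and most of the interferon genes.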
